A study of Mus musculus with 16 samples.

Results

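The 86 genes described here encode the proteins of the cytosolic ribosome. They are the protein-coding genes with symbols Rpl or Rps followed by a digit, plus Rplp0, Rplp1, Rplp2 and Rpsa, without -ps names, the Rps6k kinases and pseudogenes. They are 86 of the 49166 genes with a matched transcript in these mouse neural progenitor libraries. By symbol, 51 were counted to the large subunit and 33 to the small subunit. The remaining 2 entered through their symbols and are not subunits of the ribosome: Rps19bp1, a binding partner of Rps19, and Rpl7l1, a nucleolar protein of ribosome assembly.

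Each ribosome joins a small subunit, which reads the mRNA, to a large subunit, which makes the peptide bonds. Its protein subunits are needed in near-equal numbers. Their mRNAs are short, very abundant and carry a pyrimidine tract at the 5′ end (the 5′TOP tract), through which mTOR signalling controls their translation. In cortical progenitors ribosome production is high and goes with growth and division.

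RNA was measured by polyA sequencing in cultures of progenitors from E18.5 mouse embryonic cortex, grown with FGF-2 and EGF. The first group, KO DHT+ENZ, carried a lentivirus with Cas9 and a guide against Chd1, a chromatin remodeller, and received 10 µM enzalutamide (ENZ, an androgen receptor antagonist) and, 30 min later, 10 nM dihydrotestosterone (DHT, an androgen) for 24 h. KO DHT carried the same virus and received DHT alone, KO DMSO carried it and received the solvent, and WT DMSO carried a control virus with Cas9 and no guide and received the solvent. Each group had 4 biological replicates, grown from embryos of 2 litters. All 4 groups had been infected and selected with puromycin for 48 h, with constant Cas9 expression, and no isolation of clones is described. The design has no WT culture with DHT and none with ENZ alone. As far as the title tells, the question is how androgen acts on cells with the Chd1 knockout.

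Chd1 RNA was 68.2 ± 5.73 CPM in KO DHT+ENZ, 72 ± 3.87 in KO DHT, 67.3 ± 2.68 in KO DMSO and 66.7 ± 5.73 in WT DMSO (CPM, counts scaled to library size; SD, n = 4 each). A frameshift can leave the RNA level as it was, so this level does not check the knockout. Progenitor markers were high, with mean levels of 579 TPM (counts scaled to transcript length and library size) for Nes, 161 TPM for Sox2 and 4346 TPM for Fabp7, while Hes5 was at 0.88 TPM. Lists of other cell types were mixed: neuronal Map2 (348 TPM) and Tubb3 (37.6 TPM), oligodendrocyte lineage Olig1 (859 TPM) and Olig2 (493 TPM) and astrocyte Aldh1l1 (74 TPM) were present. Stmn2, Dcx, Mbp, Sox10 and Aqp4 of the same 3 lists were each at or under 0.268 TPM. Over all libraries the summed level ran from 832 to 1368 CPM for the neuron list, 58 to 246 CPM for the astrocyte list and 1664 to 2598 CPM for the oligodendrocyte list, with overlap among all groups. The microglia, endothelium, mural and red cell lists stayed at or under 9.66 CPM. The libraries held 31.8 to 36.9 M estimated counts each, save for 20.2 M in WT DMSO replicate 1. That library stood apart on the second principal component, while the first, with 36% of the variance, parted replicates 1 and 4 from replicates 2 and 3 in every group.

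Ribosomal protein mRNAs were among the most abundant in the cells. Levels between genes are given in TPM, which accounts for transcript length. The mean over libraries had a median of 1540 TPM over the 83 genes that passed the filter on low counts, against 10.2 TPM over all 16971 genes that passed it. Of the 83 genes, 64 had at least 1000 TPM, and 47 of the 100 highest genes of the libraries were among them. Their transcripts were short, from 347 to 2325 bases with a median of 740, against 2403 bases for all genes tested.

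The highest level was that of Rplp1, an acidic protein of the stalk that recruits elongation factors, at 5488 TPM. Rps15 (4411 TPM) and Rps24 (4289 TPM) of the small subunit came next, and Rpl23a of the large subunit was at 4065 TPM. Among the genes that passed the filter, the lowest as deposited were Rpl5 at 89.5 TPM and Rpl12 at 92.0 TPM. The next lowest were Rps19bp1 at 97.1 TPM, Rpl7l1 at 111 TPM and Rps27rt at 153 TPM. The 3 genes that did not pass were paralogs: Rpl39l at 0.00856 TPM, Rpl10l at 0.0385 TPM and Rpl3l at 0.087 TPM. Rpl10l and Rpl39l are known from male germ cells and Rpl3l from muscle.

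The level as deposited placed Rpl5, which carries 5S ribosomal RNA into the ribosome, far below its partner Rpl11. The estimated counts of Rpl5 were divided with a copy. Gm15500, annotated as a transcribed processed pseudogene, is 100% identical to the Rpl5 mRNA over 1018 bases and held 88.8% of the estimated counts of the pair. Gm10275 matched Rpl12, a protein of the stalk base, over 634 bases at 100% identity and held 91.3% of their joint counts. With such copies added, Rpl5 stood at 1488 TPM and Rpl12 at 2130 TPM.

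In all, 22 of the genes had at least 1 expressed copy with at least 95% identity over at least 80% of the copy, and 30 copies were found. The copies held over 10% of the joint counts for 11 genes. Besides Rpl12 and Rpl5, Rpl10 (57.5%, mainly in Rpl10-ps3) and Rpl27a (51.4%, in Gm7536) had more counts in the copies than in the gene. Rps23 followed with 39.4% and Rpl10a with 22.9%. Over the libraries the copies took 5.34% to 6.15% of the joint counts of all members, a narrow range. Reads that fit a gene and its copy equally cannot be told apart, so single values of these genes are uncertain.

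**Figure D1:**
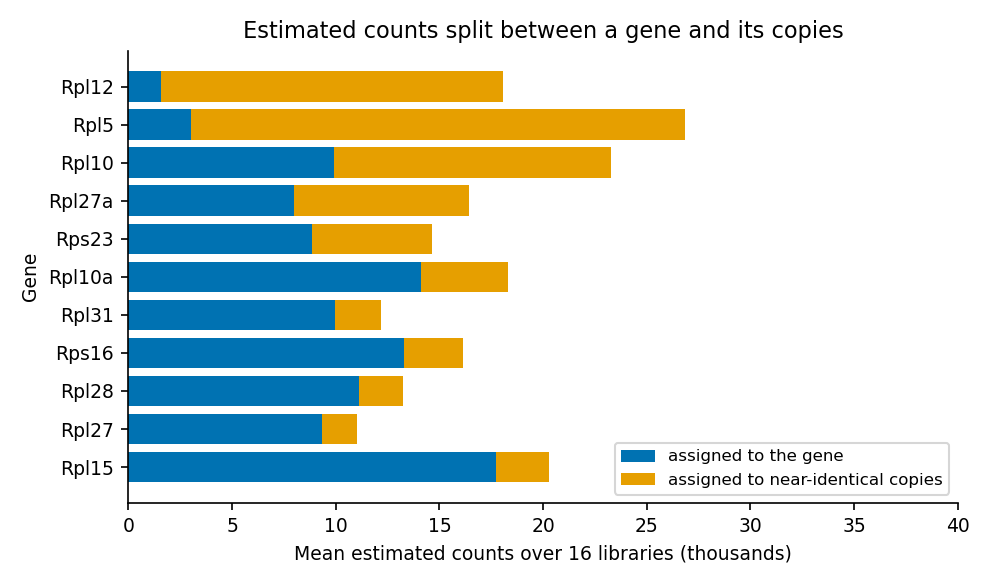
Mean estimated counts over 16 libraries, in units of 1000 (x axis), for the 11 genes with over 10% of their joint counts in near-identical copies (y axis). Blue is the part assigned to the gene and orange the part assigned to its copies, which is 91.3% for Rpl12 and 88.8% for Rpl5 and over 50% for Rpl10 and Rpl27a.

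The Rps27 family shows the same limit between 2 coding genes. Rps27 lies on chromosome 3, and its intronless relative Rps27rt lies on chromosome 9. Their coding sequences of 255 bases are 100% identical, so only the untranslated ends part their reads. Rps27l, a paralog also on chromosome 9, shares 76.6% of aligned coding bases with Rps27. Bases 1 to 60 of the coding sequences are shown because they carry this contrast (GENCODE M21 transcripts); capitals mark the 18 bases at which Rps27l differs from Rps27.
Rps27: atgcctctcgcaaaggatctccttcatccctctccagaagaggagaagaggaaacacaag
Rps27rt: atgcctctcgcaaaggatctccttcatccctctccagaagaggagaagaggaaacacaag
Rps27l: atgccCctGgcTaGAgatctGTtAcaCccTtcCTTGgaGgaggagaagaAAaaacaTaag

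The paralogs that can be told apart were well expressed in 4 cases. Rps27l reached 1044 TPM beside 1927 TPM for Rps27, and Rpl36al 833 TPM beside 1578 TPM for Rpl36a. Rpl22l1 stood at 636 TPM beside 1275 TPM for Rpl22, and Rpl7l1 at 111 TPM beside 1547 TPM for Rpl7. Coding identity within these pairs was 57.7% for Rpl7l1, 69.6% for Rpl22l1, 76.6% for Rps27l and 87.9% for Rpl36al. Rpl3l, Rpl10l and Rpl39l, with 74.3%, 84.8% and 85.3% coding identity to their partners, stayed below the filter.

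Most genes used a single mRNA form. The leading transcript held a median of 96.1% of a gene's TPM over the 83 genes, and at least 90% in 52 of them. In 11 genes it held under 60%, among them Rpl15, Rpl30, Rps3 and Rpl31. For Rpl31 the forms of 1049 and 487 bases held 45.1% and 42.1%. In Rps24 the 519-base form held 81.9% to 90.4% in 15 libraries and 70.6% in WT DMSO replicate 1. Transcripts annotated as retained introns held 0.944% to 1.67% of the members' counts, and the highest share was that of WT DMSO replicate 1.

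The 5′TOP tract was looked for at the annotated start sites. RefSeq's promoter windows (build GRCm38.p6, 250 bases before the start to 50 after it) had 78 entries for 66 of the 86 symbols. A C at the start followed by at least 4 C or T was found in 17.9% of the members' windows and in 2.51% of all 32851 windows. Windows of 15 bases on each side of the start are shown for genes with the tract, and for 3 genes without it that are described further on. Capitals mark the tract from the annotated start, and letters run 5′ to 3′ on the gene's strand.
Rps6 (chr4:86857353-86857382, minus strand): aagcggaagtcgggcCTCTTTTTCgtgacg
Rpl15 (chr14:18270972-18271001, minus strand): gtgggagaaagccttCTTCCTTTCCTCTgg
Rps18 (chr17:33955651-33955680, minus strand): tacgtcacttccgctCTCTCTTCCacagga
Rpl28 (chr7:4792950-4792979, plus strand): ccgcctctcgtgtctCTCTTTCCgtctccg
Rplp2 (chr7:141447636-141447665, plus strand): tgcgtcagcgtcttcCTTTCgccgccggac
Rps27 (chr3:90213634-90213663, minus strand): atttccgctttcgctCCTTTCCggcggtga
Rpl31 (chr1:39367836-39367865, plus strand): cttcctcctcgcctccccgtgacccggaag
Rps23 (chr13:90923107-90923136, plus strand): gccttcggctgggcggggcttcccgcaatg
Rpl23 (chr11:97782425-97782454, minus strand): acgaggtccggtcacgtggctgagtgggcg

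In Rpl31 a pyrimidine run begins before the annotated start and runs on past it. An annotated start a few bases off the true one hides the tract, so absence at the start says only that these letters are not there. Within 15 bases of the start the same pattern was in 64.1% of the members' windows and 40.1% of all windows. Searched on both strands of the 300-base window, GGGCGG was in 60.3% of the members' windows against 35.7% of all windows. CCGGAA was in 47.4% against 14.9%, AAGATGGCG in 7.69% against 1.40%, and TATAAA in 8.97% against 13.6%.

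The share of the estimated counts held by the 86 genes differed more between replicates than between groups. In KO DHT+ENZ it was 3.91%, 5.04%, 5.09% and 3.98% in replicates 1 to 4. KO DHT had 3.99%, 4.12%, 4.66% and 3.43%. KO DMSO had 3.99%, 4.66%, 4.64% and 3.87%, and WT DMSO had 4.24%, 4.50%, 5.19% and 3.74%. Replicates 2 and 3 were the 2 highest libraries of every group, and all groups overlapped. Fewer cells that make much ribosomal protein mRNA and less of it in each cell cannot be told apart in such bulk libraries.

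**Figure D2:**
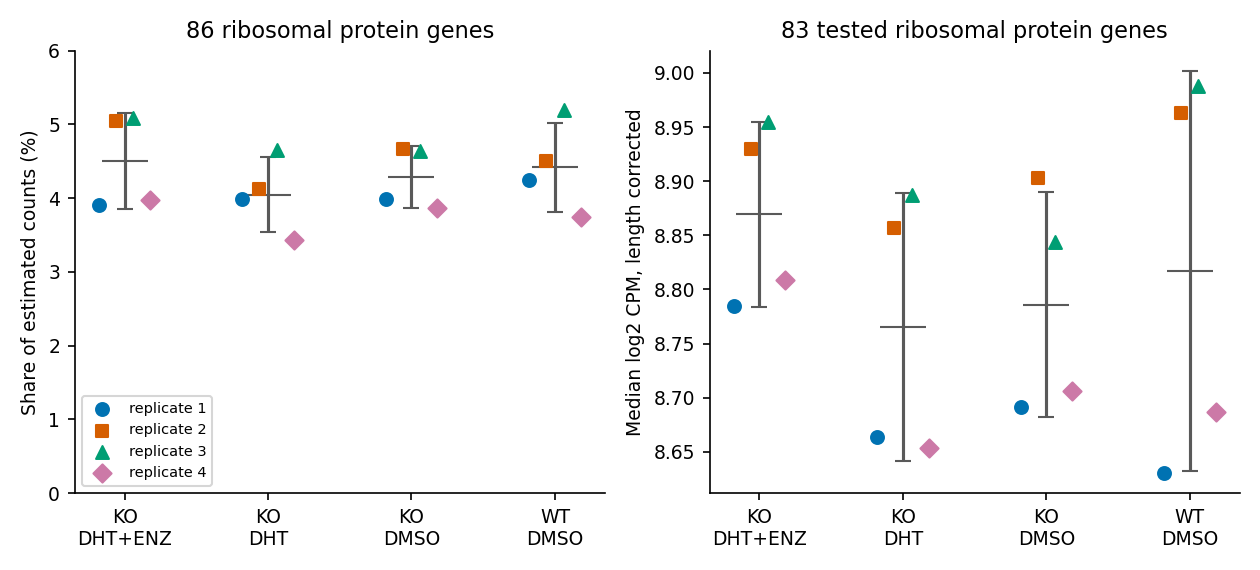
Left, share of estimated counts (%) held by the 86 genes in each library; right, median log2 CPM of the 83 tested genes after removal of each library's trend on transcript length. Groups run along the x axis, each symbol is a library, and the bar is the mean ± SD (n = 4). KO DHT replicate 4 has the lowest share, 3.43%, and WT DMSO replicate 3 the highest, 5.19%.

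The 83 genes moved together between libraries, and this was not particular to them. Over the 16 libraries, the median log2 CPM of 78 mitochondrial ribosomal protein genes correlated with theirs at 0.98. For 29 translation factors it was 0.73, and for 18 genes of mTOR and 5′TOP control 0.23. Each library's trend on transcript length, taken at the members, correlated with their median at 0.93. KO DHT replicate 4 was the lowest of the 16 libraries in CPM for 65 of the 83 genes. KO DHT+ENZ replicate 3 was the highest for 39, WT DMSO replicate 3 for 30 and KO DHT+ENZ replicate 2 for 12. The coefficient of variation of TPM over the 16 libraries was lowest for Rps27l (5.80%), Rps26 (6.18%) and Rpl15 (6.30%). It was highest for Rps27rt (37.0%), Rps29 (22.2%) and Rpl39 (21.7%). The large and small subunits kept their balance, with a ratio of summed TPM between 1.22 and 1.29 in all libraries. These sums took all Rpl and Rps symbols, with Rpl7l1 and Rps19bp1 among them. WT DMSO replicate 1 was the lowest for 15 genes. In that library Rps24 had 337 CPM, against 504 to 825 CPM in the other 15, and Rpl5 had 54.8 CPM against 84.0 to 111 CPM.

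The first comparison asked what the Chd1 guide did without androgen. No ribosomal protein gene was called in KO DMSO against WT DMSO by edgeR's quasi-likelihood test at an adjusted p under 0.05: 0 of 83, beside 0 of 16971 genes tested (0%). None reached an unadjusted p under 0.05, beside 2.99% of all genes, and DESeq2 called 0. The log2 fold change (KO DMSO over WT DMSO) had a median of -0.02 over the 83 genes, with 31 above 0 and 52 below, against -0.00 over all genes tested. The sign of that median turned with single libraries: it was 0.08 without WT DMSO replicate 3, 0.00 without WT DMSO replicate 2, 0.02 without KO DMSO replicate 1, 0.03 without KO DMSO replicate 4 and -0.11 without WT DMSO replicate 4. CPM ranges of the groups overlapped for every member, while 1.08% of all genes had groups that did not overlap.

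The members with the smallest p showed how small these differences were. Rpl12 had 48.7, 49.7, 52.6 and 45.8 CPM in KO DMSO, against 51.1, 56.4, 59.2 and 46.2 CPM in WT DMSO, lower in all 4 same-numbered pairs. Its log2 fold change was -0.11 (SE 0.09; edgeR adjusted p = 1). The log2 fold changes of Rps27rt (-0.34, SE 0.34) and Rps16 (-0.13, SE 0.15) were below 0, and none of the 3 passed. Without WT DMSO replicate 3 the values were -0.05 for Rpl12 and -0.04 for Rps16, and without WT DMSO replicate 4 they were -0.18 for Rpl12 and -0.23 for Rps16. Rps27rt ranged from -0.56 without WT DMSO replicate 4 to -0.05 without WT DMSO replicate 2. Rpl39 of the exit tunnel (0.23, SE 0.24), Rpl5 (0.14, SE 0.15) and Rpl24 (0.10, SE 0.17) lay above 0 and did not pass either. Each of these 3 was low in WT DMSO replicate 1. With that library left out, the values were 0.08 for Rpl39, -0.02 for Rpl5 and -0.00 for Rpl24.

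The second comparison asked what DHT did in KO cells. Again 0 of 83 members were called in KO DHT against KO DMSO, beside 0 of 16971 genes (0%), with 1 at an unadjusted p under 0.05 (1.14% of all genes) and 0 by DESeq2. The log2 fold changes nevertheless lay mostly below 0: 79 of 83 were negative, with a median of -0.10, against -0.00 over all genes tested. In same-numbered pairs 1 to 4 the median difference was -0.01, -0.17, -0.02 and -0.22, so pairs 2 and 4 carried it. It moved to -0.01 without KO DHT replicate 4, to -0.05 without KO DMSO replicate 3 and to -0.06 without KO DMSO replicate 2. It moved to -0.19 without KO DHT replicate 3 and to -0.16 without KO DMSO replicate 4.

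Rpl10, a late-joining protein of the large subunit, had the smallest p. It stood at 219, 352, 220 and 229 CPM in KO DHT, against 310, 377, 362 and 293 CPM in KO DMSO. All 4 pairs were lower with DHT, but KO DHT replicate 2 lay within the KO DMSO range. The log2 fold change was -0.40 (SE 0.16; edgeR adjusted p = 1). It was -0.60 without KO DHT replicate 2, and with the counts of its copies added it was -0.12.

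Rpl3, a core protein near the peptidyl transferase centre, had 909, 1080, 1080 and 891 CPM in KO DHT, against 1066, 1327, 1275 and 1037 CPM in KO DMSO. Every pair was lower with DHT and the groups overlapped. The log2 fold change was -0.25 (SE 0.13; edgeR adjusted p = 1). Rpl12 was the only member whose groups did not overlap, with 40.7 to 45.4 CPM in KO DHT and 45.8 to 52.6 CPM in KO DMSO, and it did not pass (-0.16, SE 0.09). It was 1 of 83 members (1.2%), and groups without overlap were found for 1.58% of all genes tested. Rpl35a (0.04, SE 0.15), Rpl37a (0.04, SE 0.21) and Rps24 (0.01, SE 0.21) had the smallest p among the 4 genes above 0, and none passed.

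The third comparison asked what ENZ did in KO cells under DHT. It shares the KO DHT libraries with the second, so an opposite direction in the 2 is not independent. Without the replicate number in the model, 0 of 83 members were called in KO DHT+ENZ against KO DHT, beside 45 of 16971 genes (0.265%). Of the members 5 had an unadjusted p under 0.05, beside 6.96% of all genes, a share near theirs, and DESeq2 called 0. The log2 fold changes (KO DHT+ENZ over KO DHT) were above 0 for 82 of 83 members, with a median of 0.23, against -0.00 over all genes tested. CPM ranges of the groups overlapped for every member, while 6.05% of all genes had groups that did not overlap.

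The replicate number was also entered as a block, because every same-numbered correlation over 9747 genes passed 0.1, the limit set for pairing. Same-numbered values reached 0.791 and different-numbered ones 0.795, so passing this limit does not show that the numbers pair the cultures. With the block 10 of 83 members were called, all higher in KO DHT+ENZ. Beside them 266 of 16971 genes were called higher (1.57%) and 591 in either direction (3.48%). The 10 were Rpl31, Rps23, Rpl32, Rpl17, Rpl23, Rpl3, Rpl24, Rps18, Rps25 and Rpl15. Their log2 fold changes were between 0.23 and 0.33 (SE 0.06 to 0.07), with edgeR adjusted p between 0.0102 and 0.046. Of the 83 members, 35 had a higher CPM in KO DHT+ENZ in all 4 pairs, beside 14% of all genes, and 57 had an unadjusted p under 0.05 with the block, beside 15.7%. The members moved together between libraries, at a median correlation of 0.93 with the median of the other members. Neither count is thus a tally of separate results. The test reads the differences within pairs, so the sign in each pair is no further support for the 10. Rpl31 and Rpl17 lie at the peptide exit tunnel, Rpl24 bridges the subunits, and Rps18 lies in the head of the small subunit. In the other 3 comparisons the block called 0 members, beside 0% of all genes in KO DMSO against WT DMSO, 0% in KO DHT against KO DMSO and 2.94% in KO DHT+ENZ against KO DMSO. At an unadjusted p under 0.05 with the block there were 0 members in KO DMSO against WT DMSO (7.83% of all genes), 16 in KO DHT against KO DMSO (8% of all genes) and 10 in KO DHT+ENZ against KO DMSO (13.5% of all genes).

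Rpl31 had 280, 398, 398 and 287 CPM in KO DHT+ENZ, against 228, 323, 303 and 231 CPM in KO DHT. Each pair rose by a similar step, and the spread between replicates of a group was larger than that step. Its log2 fold change was 0.33 with the block (SE 0.06; edgeR adjusted p = 0.0102) and 0.33 without it (SE 0.16; adjusted p = 0.721). Rps23, in the decoding centre, had 258, 352, 353 and 251 CPM in KO DHT+ENZ, against 231, 269, 282 and 210 CPM in KO DHT. Its log2 fold change with the block was 0.28 (SE 0.06; edgeR adjusted p = 0.0185).

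Rpl23 had 542, 730, 804 and 575 CPM in KO DHT+ENZ, against 521, 557, 569 and 459 CPM in KO DHT. Pair 1 differed little, and the other pairs gave the change of 0.32 (SE 0.07; edgeR adjusted p = 0.0296 with the block). Rpl3 had 1049, 1366, 1262 and 1042 CPM in KO DHT+ENZ, against 909, 1080, 1080 and 891 CPM in KO DHT. Here all 4 pairs were close to each other, at a log2 fold change of 0.25 (SE 0.06; edgeR adjusted p = 0.0303 with the block). Its KO DMSO libraries, at 1037 to 1327 CPM, covered nearly the same range as KO DHT+ENZ.

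Among the other genes called with the block, Rps18 had 497, 747, 747 and 526 CPM in KO DHT+ENZ, against 476, 551, 589 and 425 CPM in KO DHT, at a log2 fold change of 0.29 (SE 0.07; edgeR adjusted p = 0.0381). Rps25 had 343, 442, 494 and 339 CPM in KO DHT+ENZ, against 339, 343, 377 and 285 CPM in KO DHT, with pair 1 nearly equal. Rpl15 had 520, 673, 634 and 526 CPM in KO DHT+ENZ, against 475, 558, 526 and 437 CPM in KO DHT, at the smallest change of the 10 (0.23, SE 0.06; adjusted p = 0.046). Rpl32, Rpl17 and Rpl24 of the large subunit lay between these in size, at 0.30, 0.29 and 0.27 (SE 0.07 each). Of the 10 genes, 7 belong to the large subunit and 3 to the small subunit. The unblocked medians of the subunits were 0.24 for the large and 0.23 for the small.

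**Figure D3:**
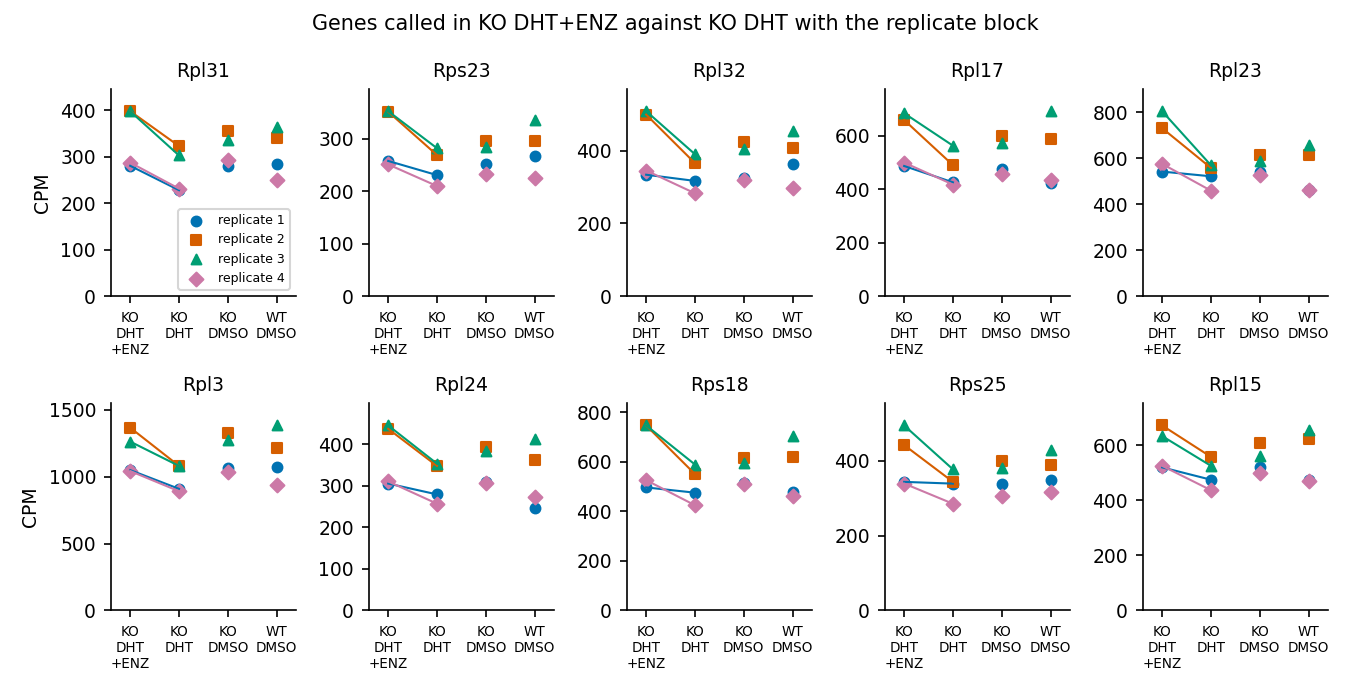
CPM (y axis, from 0) of the 10 genes called in KO DHT+ENZ against KO DHT with the replicate block, in all 16 libraries by group (x axis). Each symbol is a library and lines join same-numbered libraries of KO DHT+ENZ and KO DHT. Every line runs down to the right, and replicates 2 and 3 lie above 1 and 4 within both groups.

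Members outside these 10 also had values above 0. Rps6, the target of S6 kinase, had 735, 1044, 1022 and 736 CPM in KO DHT+ENZ, against 706, 781, 899 and 610 CPM in KO DHT. With the block its log2 fold change was 0.23 (SE 0.07; edgeR adjusted p = 0.0747), so it did not pass. The stalk proteins Rplp1 (0.28, SE 0.08; edgeR adjusted p = 0.0557) and Rplp2 (0.30, SE 0.09; adjusted p = 0.0867) did not pass with the block. Rpl5 as deposited was the 1 member not above 0, at -0.00 (SE 0.15), and with Gm15500 added it was at 0.20, in neither case called.

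Short transcripts had the largest values. Rps29 (390 bases) had 55.4, 137, 191 and 68.2 CPM in KO DHT+ENZ, against 82.1, 75.0, 71.7 and 52.2 CPM in KO DHT. It was higher in pairs 2, 3 and 4, most in pair 3, and lower in pair 1. Its log2 fold change of 0.69 (SE 0.29; edgeR adjusted p = 0.626) did not pass. Rps27 (347 bases) behaved alike, at 81.1, 149, 202 and 84.2 CPM in KO DHT+ENZ, against 91.2, 96.2, 112 and 64.6 CPM in KO DHT. The 12 members under 500 bases had a median log2 fold change of 0.38 and the other 71 had 0.20. Across the 83 genes the rank correlation of log2 fold change with transcript length was -0.50. Across the 9665 other genes with at least 10 CPM it was -0.37. In KO DHT against KO DMSO it was -0.23 across the members and 0.65 across the other genes, and in KO DHT+ENZ against KO DMSO it was -0.61 across the members and 0.13 across the other genes, so the direction was not shared there. Genes are not independent replicates, so no p is given.

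**Figure D4:**
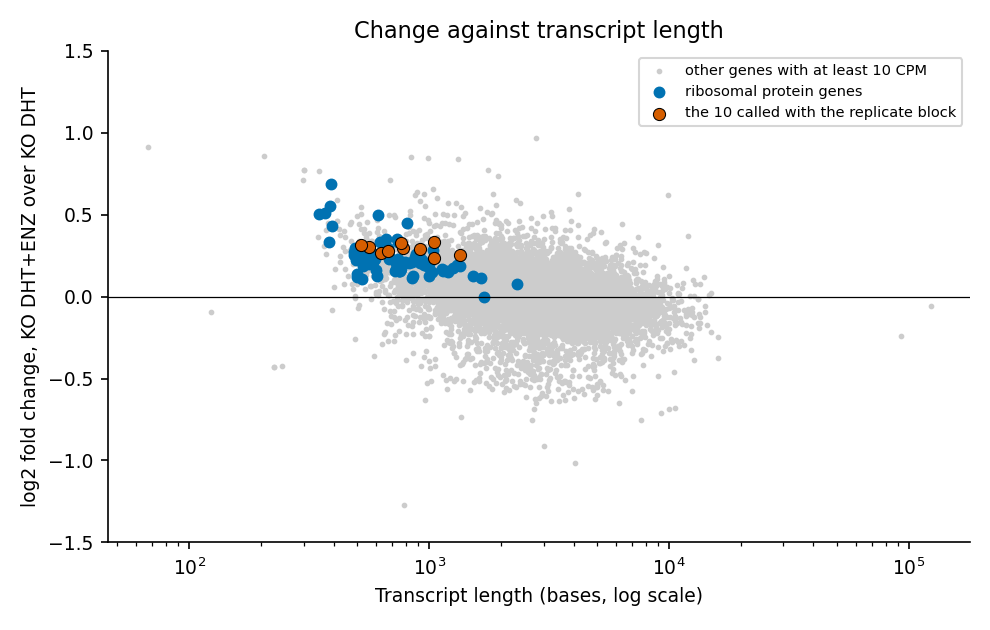
Log2 fold change of KO DHT+ENZ over KO DHT (y axis, model without block) against transcript length in bases (x axis, log scale). Grey points are 9665 other genes with at least 10 CPM, of which 2 lie outside the axis; blue points are 82 ribosomal protein genes with at least 10 CPM, and orange points are the 10 called with the replicate block. The members lie at the short end and above 0, and the highest of them are short.

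The transcript length check was made by library. A smooth trend of log2 CPM on transcript length, drawn through 9747 genes, was removed from each library. Members made up 65 of the 675 genes under 1000 bases on which the short end of the trend rests. In pairs 1 to 4 the members' median difference between KO DHT+ENZ and KO DHT was -0.02, 0.39, 0.24 and 0.26 as measured. After the correction it was 0.05, 0.13, 0.02 and 0.13, above 0 in all 4 pairs and smaller in the 3 pairs that had been high. With the trend as an offset in the blocked model the median was 0.09, and 2 members were called: Rps23 (0.18; edgeR adjusted p = 0.0487) and Rpl3 (0.19; adjusted p = 0.0353), beside 1.53% of all genes called higher. The 10 genes then had log2 fold changes of 0.10 to 0.23, and the 8 that missed the threshold included Rps25 (0.10), Rpl32 (0.12), Rpl31 (0.20) and Rpl23 (0.23). With the offset and no block, the rank correlation with length among the members was 0.02, and it was -0.24 in KO DHT against KO DMSO and -0.19 in KO DHT+ENZ against KO DMSO. Under the offset and block the members' median was -0.01 in KO DHT against KO DMSO and 0.07 in KO DHT+ENZ against KO DMSO.

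**Figure D5:**
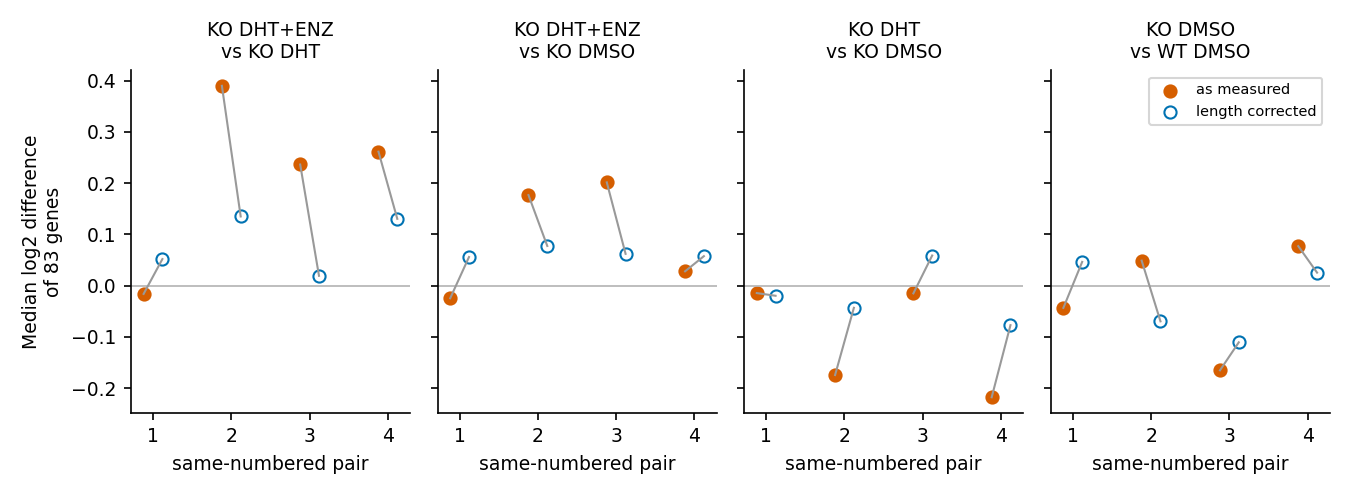
Median log2 difference of the 83 genes (y axis) in each same-numbered pair (x axis) for the 4 comparisons. Filled orange points are as measured and open blue points after removal of each library's length trend, joined by a line. In KO DHT+ENZ against KO DHT the medians of pairs 2, 3 and 4 lie between 0.24 and 0.39 as measured and between 0.02 and 0.13 after the correction.

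Fragment length differed between these libraries. Over all 16 libraries its mean correlated with the members' median log2 CPM at -0.25. The effective lengths in the files give a mean fragment of 340, 315, 281 and 342 bases in KO DHT+ENZ, against 321, 326, 325 and 344 bases in KO DHT. KO DHT+ENZ replicate 3, with the shortest fragments of all 16 libraries, was also the library with the highest values of Rps29 and Rps27. WT DMSO replicate 3, with the longest fragments at 346 bases, had the highest share of ribosomal protein counts. With each gene's effective length in each library as an offset beside the block, 1 member was called, Rpl23 (0.30; edgeR adjusted p = 0.0467), beside 0.625% of all genes called higher. The members' median stayed at 0.20. This offset left much of the relation to transcript length in place. Without the block, the rank correlation with length was -0.26 across the members and -0.33 across the other genes. It had been -0.50 and -0.37 without the offset. The part of fragment length in the single values was not tested further.

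The median of 0.23 moved by over 1.5 times without any 1 of 3 libraries. It was 0.14 without KO DHT+ENZ replicate 3, 0.15 without KO DHT+ENZ replicate 2 and 0.14 without KO DHT replicate 4. Leaving out WT DMSO replicate 1, which takes no part in the contrast but shares the estimate of spread, raised the blocked count to 30 of 83, all higher, beside 4.53% of all genes called higher. DESeq2 with the block called 26, all higher, beside 3.32%. Both sets held all 10 of the genes named above. With counts of near-identical copies added, the blocked model again called 10, beside 1.57% of all genes called higher, and 8 of the 10 were shared. Rpl31 and Rps23 then missed the threshold (edgeR adjusted p = 0.11 and 0.0849), and Rpl28 and Rps10 passed.

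The fourth comparison set KO DHT+ENZ against KO DMSO, where neither androgen nor antagonist was given. It called 0 of 83 members, beside 43 of 16971 genes (0.253%), with 0 at an unadjusted p under 0.05 (5.76% of all genes) and 0 by DESeq2. The median log2 fold change was 0.12, with 77 members above 0 and 6 below, against 0.01 over all genes tested. Pairs 1 to 4 had medians of -0.02, 0.18, 0.20 and 0.03, so pairs 2 and 3 carried it. It was 0.02 without KO DHT+ENZ replicate 2, 0.04 without replicate 3, 0.19 without replicate 1 and 0.18 without replicate 4 of that group. It was 0.06 without KO DMSO replicate 1 and 0.05 without KO DMSO replicate 4. CPM ranges overlapped for every member, against 6.1% of all genes without overlap.

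In the model without the block, the members with the smallest p had short transcripts. With the block, Rps23 (919 bases), Rpl23 (1049 bases) and Rps25 (630 bases) had a smaller p than Rps29. Their edgeR unadjusted p was 0.0115, 0.0128 and 0.0134, beside 0.132 for Rps29. Each of the 3 was higher in all 4 pairs, and none passed. Rps29 had 55.4, 137, 191 and 68.2 CPM in KO DHT+ENZ, against 81.4, 59.9, 74.9 and 93.3 CPM in KO DMSO. Replicates 1 and 4 were lower with ENZ and DHT, and replicates 2 and 3 higher. Its log2 fold change was 0.55 (SE 0.29; edgeR adjusted p = 0.989). Rps27 (0.43, SE 0.23) and Rpl38 (0.51, SE 0.28) had the same pattern over the replicates and did not pass. Without KO DHT+ENZ replicate 3 the log2 fold change was 0.17 for Rps29, 0.13 for Rps27 and 0.14 for Rpl38. Below 0 lay Rpl5 (-0.05, SE 0.15), Rpl10 (-0.04, SE 0.16) and Rpl7l1 (-0.04, SE 0.10), none past the threshold. Rplp0, the core of the stalk and a common reference gene, was at 0.00 (SE 0.16), and Rpsa, the laminin receptor protein of the small subunit, at -0.04 (SE 0.20).

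Genes close to the family by function were set beside it from lists. Fau, which encodes a ribosomal protein fused to a ubiquitin-like protein, and Rack1, a scaffold on the small subunit, fall outside the symbol rule. In KO DHT+ENZ against KO DHT the log2 fold change was 0.23 (SE 0.18) for Fau and 0.24 (SE 0.15) for Rack1. In KO DHT against KO DMSO it was -0.11 for Fau and -0.19 for Rack1. Neither passed in either model. Of 78 mitochondrial ribosomal protein genes, 0 were called without the block and 2 with it. Both were higher in KO DHT+ENZ against KO DHT, beside 1.57% of all genes called higher with the block. The median of the 78 in that comparison was 0.12. Of 29 translation factors, 0 were called in any comparison in either model, and their median there was 0.11. Of 18 genes of mTOR and 5′TOP control, 0 were called without the block, beside 0.265% of all genes, and the median was -0.01. With the block 1 was called, beside 3.48% of all genes in either direction, too few to read as a result about the list. That gene was Eif4ebp1, a translation repressor that mTOR switches off, at 119 ± 14.6 CPM in KO DHT+ENZ and 88.9 ± 7.23 CPM in KO DHT (SD, n = 4 each), a log2 fold change of 0.41 (SE 0.08; edgeR adjusted p = 0.0135 with the block).

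In KO DHT+ENZ against KO DHT, genes of the cell cycle moved the other way. Library by library they did not. Over the 16 libraries their median log2 CPM correlated with that of the members at 0.55. Of 10 such genes, 2 were called lower in KO DHT+ENZ against KO DHT without the block and 7 with it. In either direction, 0.265% of all genes were called without the block and 3.48% with it. All 10 lay below 0, with a median of -0.38. No length-corrected values are given here for these genes. Mki67, a marker of dividing cells, was at 240 ± 14.3 CPM in KO DHT+ENZ and 386 ± 33.8 CPM in KO DHT (SD, n = 4 each; log2 fold change -0.69, SE 0.10; edgeR adjusted p = 0.00752). Top2a, which untangles DNA in division, was at 355 ± 31.4 CPM in KO DHT+ENZ and 552 ± 55.7 CPM in KO DHT (log2 fold change -0.64, SE 0.10; edgeR adjusted p = 0.0111). Against KO DMSO, 3 of the 10 were called lower without the block and 9 with it. Of all genes, 0.253% were called there without the block and 2.94% with it, in either direction. Summed progenitor markers overlapped, at 6751 to 8612 CPM in KO DHT+ENZ, 7044 to 8611 CPM in KO DHT, 6983 to 8658 CPM in KO DMSO and 6885 to 9476 CPM in WT DMSO. The part of these genes in the values of the ribosomal protein genes was not tested.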

How the data were processed

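Per the labels' protocols, libraries of polyA RNA were read at both ends (150 bp, 30 M sought). The submitters' processing notes name kallisto and GRCm39; versions are not given in the sources used here. The authors deposited estimated counts and TPM per transcript, beside its length and effective length, per the file headers. Depth was 20.2 to 36.9 M. Of 146190 transcripts listed, 135007 were matched by identifier to GENCODE M21, used for names only since its build differs; they held 98.85% to 99.12% of counts. No step is known to use strand.

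Gene sums of these counts, as whole numbers, entered edgeR 4.0.16 under R 4.3.3 (quasi-likelihood, TMM, filterByExpr, all 16 libraries in 1 model of the 4 groups, Benjamini-Hochberg over 16971 genes, called at adjusted p under 0.05). SE is the absolute log2 fold change over the root of F. Alternatives were DESeq2 1.42.0, other scalings and filters, each library left out, the replicate block, a length trend offset, pseudogene counts added (by name, or by blastn 2.17.0 matches) and effective length offsets. The last ones and some block combinations were chosen after seeing the data. TPM, as deposited, gave levels only.

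The labels do not say that replicate numbers pair the cultures. Prefixes in the names of the deposited data run with the replicate numbers, and what they stand for is not given. Over 9747 genes, same-numbered libraries' deviations from group means correlated at 0.155 to 0.791, above the 0.1 set for pairing; the highest correlation between different numbers was 0.795, so the data do not single out the numbers. Since every same-number value passed, the block stands beside the model without it. The members and lists were chosen with earlier results of these data known, and so was the rule for naming genes: the smallest p-values in each comparison, the highest and lowest levels, genes not passing the filter, paralog pairs and known landmarks. With p-values over 4 libraries a group, precision is limited by their spread.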

Additional observations from a re-analysis of the deposited data

Results flagged for a closer look

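Within groups of 4 libraries, 132 sets of CPM values of the named genes were examined for a library far from the other 3, and 4 passed Dixon's 95% critical value. Chance alone marks about 1 set in 20. In KO DHT, Rpl10 in replicate 2 (352 CPM) lay above 219 to 229 CPM in the others, with a gap of 0.923 of the group's range. In KO DHT, replicate 4 was low for Rpl12 (gap 0.883) and for Rpl39 (gap 0.844), the library with the lowest share of ribosomal protein counts. In WT DMSO, Rpl10 in replicate 4 (254 CPM) lay below 333 to 338 CPM in the others, with a gap of 0.935.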

How the results depend on the processing

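The count of members called in KO DHT+ENZ against KO DHT, 0 in the model without block, was 10 with the replicate block, 10 with block and sequence-matched copies, 2 with block and length trend offset, 1 with block and effective length offset, 26 with DESeq2 and block, and 30 with block and without WT DMSO replicate 1. The cause was not tested. The block changed no other count. In the model without block the counts were 0 in all 4 comparisons with each library left out, which says nothing of the blocked calls. The members' median level, averaged over libraries, was 1717 TPM with sequence-matched copies, against 1530 TPM as deposited. No called value reversed. Among uncalled genes, leaving out single libraries reversed Rpl24 (-0.0038 to 0.244) and Rpl5 (-0.0207 to 0.286) in KO DMSO against WT DMSO. In KO DHT against KO DMSO it reversed Rps24 (-0.118 to 0.109), Rpl35a (-0.0551 to 0.147) and Rpl37a (-0.117 to 0.18). In KO DHT+ENZ against KO DHT it reversed Rpl5 (-0.0359 to 0.0466), and against KO DMSO Rpl10 (-0.156 to 0.0376), Rpl7l1 (-0.0945 to 0.011) and Rpl5 (-0.109 to 0.0100). Rpl5 also reversed to -0.0063 in KO DMSO against WT DMSO (block without WT DMSO replicate 1). In KO DHT+ENZ against KO DHT it reversed to 0.00089 (DESeq2), 0.00696 (no filter), 0.196 (copies) and 0.188 (block and copies), and against KO DMSO to 0.0719 and 0.0713 with copies. Rps24 reversed in KO DHT against KO DMSO to -0.0017 (block without WT DMSO replicate 1), -0.0134 (effective length offset) and -0.0029 (the same with block). Rpl10 reversed in KO DHT+ENZ against KO DMSO to 0.0898 (copies by name or by sequence) and 0.0946 (block and copies).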
